A study of Mus musculus with 12 samples.

Results

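The contrast asked whether the change in RNA that followed depletion of CD301b-positive mononuclear phagocytes differed between liver and white fat. For each gene it was the difference between Mgl2-DTR and wild-type liver minus the mean of the same difference in epididymal and in inguinal fat, so a positive value means that the gene stood higher in Mgl2-DTR liver, relative to fat, than in the wild-type. All 12 of the study's 12 arrays entered it, as 6 groups of 2. The groups were epididymal white adipose tissue, inguinal white adipose tissue and liver of male wild-type C57BL/6N mice, and the same 3 tissues of male Mgl2-DTR mice on the C57BL/6N background, matched for age. Mice of both genotypes received diphtheria toxin into the abdomen, at 500 ng per mouse and dose, at intervals of 3 days, and the tissues were collected on day 10, so the wild-type groups were also exposed to the toxin. In Mgl2-DTR mice the Mgl2 gene, which encodes the CD301b lectin, drives the receptor for the toxin. Any cell that uses Mgl2 is therefore a possible target, in whichever tissue it lies. The ages of the mice were not given in the sources used here.

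Levels are the deposited log2 values, on which a difference of 1 is a 2-fold difference. Of 22180 genes with a probe of their own, 12710 were tested because their mean level in at least 1 tissue (4 arrays) was over 5.71, the median of all values of probes with exactly 1 gene symbol. Among the tested genes, 10313 were over that level in liver and in at least 1 fat depot and are called expressed in both. Another 857 were over it in liver and in neither depot (near background in fat), and 1540 were over it in a depot and not in liver (near background in liver). The size of a change has only a bound where either genotype is below that level.

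The tissues were as labelled. The mean of 15 hepatocyte genes lay between 11.73 and 11.84 in the 4 liver arrays and between 5.30 and 6.37 in the 8 fat arrays, and the mean of 13 adipocyte genes lay between 10.98 and 11.74 in fat and between 6.37 and 6.53 in liver. Some fat arrays stood apart. The mean of 11 skeletal muscle genes was 10.73 in Inguinal wild-type replicate 2 and 10.52 in Inguinal Mgl2-DTR replicate 1, against 6.83 in each of the other inguinal arrays. The mean of 6 epididymal duct genes was 12.09 in Epididymal Mgl2-DTR replicate 2 and at most 4.41 in every other array. Epididymal wild-type replicate 1 held the highest pan-macrophage mean, 10.25, and the highest cell cycle mean, 8.12, of all arrays. The values of 2 arrays of a group differed with an SD over genes of 0.51 and 0.55 in the epididymal groups, 0.35 in both inguinal groups, and 0.32 and 0.30 in the liver groups. The labels speak of single mice, but do not say whether tissues with the same replicate number came from the same mouse, and the p-values reflect no more than the spread among these arrays.

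CD301b is a C-type lectin of some dendritic cells and tissue macrophages. White fat holds resident macrophages that carry CD301b together with Retnla, Folr2 and scavenger receptors, and these cells clear debris and release chemokines. The liver's own resident macrophages, the Kupffer cells, line the sinusoids, take particles from the blood, and are known by Vsig4, Clec4f, Timd4 and Marco rather than by Mgl2. Macrophages of both tissues make the complement subunits C1qa, C1qb and C1qc and can carry MHC class II molecules, which show peptides to helper T cells. Hepatocytes make up most of the liver's RNA, and part of their cytochrome P450 and steroid-handling genes differ between male and female mice.

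The genes called higher in liver relative to fat included the 3 chains of complement C1q, the class II genes H2-Aa, H2-Ab1 and H2-Eb1, and the macrophage genes Mgl2, Cd209g, Retnla, Folr2 and Vsig4. Those called lower included the hepatocyte genes Selenbp2 and Onecut1. Of the 12710 genes, 30 passed at an adjusted p under 0.05, which is 0.236%. Of these, 23 were higher (0.181% of genes tested) and 7 were lower (0.0551%). Before adjustment 1009 genes, 7.94%, had a p under 0.05. Among genes expressed in both tissues 15 passed (0.145%), 13 higher and 2 lower. Near background in fat 9 passed (1.05%), 5 higher and 4 lower, and near background in liver 6 passed (0.39%), 5 higher and 1 lower. Unadjusted p-values under 0.05 made up 6.7%, 16.1% and 11.7% of these 3 classes. Every called gene had 1 probe among those with exactly 1 gene symbol. Probes with several symbols or none were not searched for these genes.

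The calls were split by which component change was called as well. The fat change averages both depots and so rests on more arrays than the liver change, which favours calls in fat. A liver change that was not called is therefore not shown to be absent. The fat change was called as well, and the liver change was not, for 20 of the 30. The liver change was called and the fat change was not for 7, both were called for 0, and neither was called for 3, namely Gal3st2b, Cx3cr1 and the predicted gene Gm4450. Over all genes, the fat change was called for 41 (0.323%) and the liver change for 9 (0.0708%); in single depots it was 4 in epididymal (0.0315%) and 25 in inguinal fat (0.197%). The liver arrays of the genotypes were apart for 28 of the 30, and for 34.4% of all genes tested. In 16 of the 23 genes called higher, the Mgl2-DTR arrays lay below the wild-type arrays in both depots and above them in liver, with no overlap in any of the 3 tissues. That pattern held for 1.24% of all genes tested. The mirror pattern, both depots above and liver below, held for 4 of the 7 genes called lower and for 1.18% of all genes tested. The genes were called on these same arrays by the liver change minus the fat change, which favours such patterns. Their shares beside those of all genes are therefore a description and no independent evidence.

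**Figure D1:**
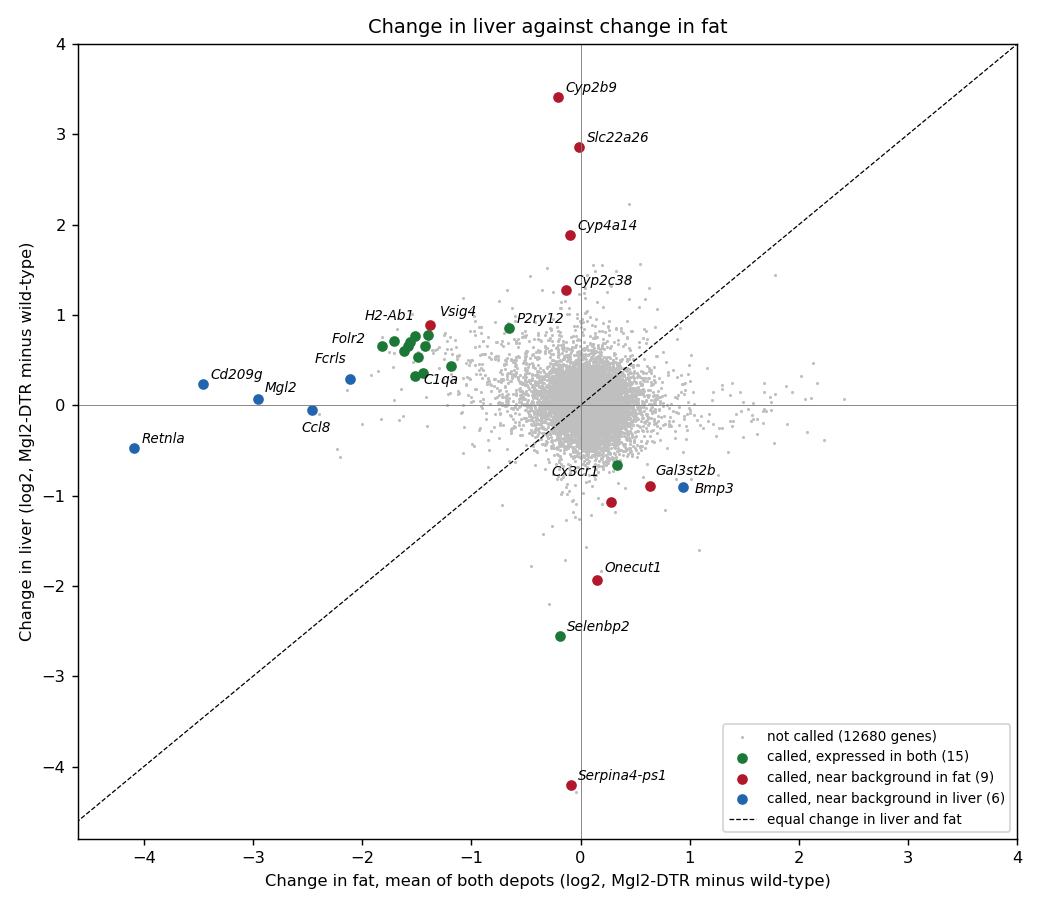
Each point is 1 of the 12710 genes tested, with its change in fat (mean of both depots, log2, Mgl2-DTR minus wild-type) on the x axis and its change in liver on the y axis; the 30 called genes are coloured by expression class, and the dashed line marks equal change. C1qa, C1qb, C1qc, H2-Aa, H2-Ab1, H2-Eb1, Folr2 and Vsig4 lie to the left with liver changes between 0.32 and 0.89, Cx3cr1 lies on the other side of both axes, and Cyp2b9, Slc22a26, Selenbp2 and Serpina4-ps1 lie near 0 in fat and far from 0 in liver.

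How many genes passed rested on single arrays. Leaving out 1 array gave 35 calls without Epididymal wild-type replicate 1, 242 without Epididymal wild-type replicate 2, 157 without Epididymal Mgl2-DTR replicate 1 and 22 without Epididymal Mgl2-DTR replicate 2. It gave 20 and 16 calls without Inguinal wild-type replicates 1 and 2, and 23 and 30 without Inguinal Mgl2-DTR replicates 1 and 2. On the liver side it gave 12 without Liver wild-type replicate 1, 0 by limma without Liver wild-type replicate 2 (where 825 genes still had an unadjusted p under 0.05), 15 without Liver Mgl2-DTR replicate 1 and 6 without Liver Mgl2-DTR replicate 2. Without both muscle-bearing inguinal arrays 0 genes passed in limma, with 637 at an unadjusted p under 0.05. Without Epididymal wild-type replicate 1 and Epididymal Mgl2-DTR replicate 2 together 40 passed, and 24 of the 30 were among them. Without all 4 fat arrays that stood apart, a setting chosen after seeing the data, 41 passed, and 20 of the 30 were among them. The genes tested were chosen again from the arrays kept, so some calls in these settings were of genes not tested in the main fit. The signs held: all 29 of the called genes other than Gm4450, which was not followed, kept the direction of their contrast in every setting that tested them. The calls held less evenly, in up to 26 of 29 settings for C1qc and Cyp2b9 and in 17 of 29 for H2-Eb1 and Slc9a9. For Cyp2c38 it was 16 of 29, for Gal3st2b 16 of 27 and for Cx3cr1 10 of 28. Such tallies include the looser threshold of 0.10, under which no call can be lost. They also include a cut at an absolute estimate of 1 on the same fit, whose outcome the main estimate fixes. The settings of probe choice, filter and eBayes kept the estimate of each called gene. There its sign could not turn, and only its standard error and adjusted p could move.

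Mgl2, the gene of CD301b, fell in fat and was near background in liver of either genotype. Its level was 7.46 and 7.22 against 4.25 and 4.19 in epididymal fat of wild-type and Mgl2-DTR mice, and 7.07 and 7.36 against 4.12 and 4.72 in inguinal fat. In liver it was 4.36 and 4.12 in wild-type and 4.59 and 4.03 in Mgl2-DTR mice, all below the 5.71 taken as expressed. The fat groups did not overlap and the liver groups did. The measured log2 change in fat was -2.96 ± 0.17 (SE; adjusted p = 0.000269), of which the size has only a bound since the Mgl2-DTR fat arrays were also below that level, and the contrast was 3.03 ± 0.30 (SE; adjusted p = 0.0107).

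The other genes near background in liver that passed higher in the contrast were all in the resident macrophage list. Cd209g, a lectin of the DC-SIGN family, was at 5.90 and 7.0 in wild-type epididymal fat against 3.79 and 3.84 in that of Mgl2-DTR mice, and at 8.32 and 8.65 against 4.30 and 4.11 in inguinal fat. In liver it stayed between 3.92 and 4.37, and its contrast was 3.69 ± 0.38 (SE; adjusted p = 0.0107). Retnla, which encodes the secreted protein RELM-alpha of alternatively activated macrophages, was at 10.62 and 10.44 against 7.90 and 6.53 in epididymal and 10.72 and 10.97 against 5.88 and 6.09 in inguinal fat. Its liver values were 4.0 and 3.19 in the wild-type and 3.10 and 3.13 in Mgl2-DTR mice, and its contrast was 3.61 ± 0.48 (SE; adjusted p = 0.0202). Its fall in fat was 17-fold (adjusted p = 0.000292).

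Fcrls, a scavenger-type relative of Fc receptors, was at 7.59 and 7.88 against 6.11 and 5.95 in epididymal and 8.28 and 8.75 against 5.80 and 6.21 in inguinal fat, with 5.23 and 5.33 against 5.60 and 5.53 in liver. Its liver groups were apart as well, with the Mgl2-DTR arrays higher, although all 4 were below the expressed level. Ccl8, a chemokine that attracts monocytes and T cells, was at 6.33 and 6.53 against 4.70 and 5.07 in epididymal and 9.28 and 8.73 against 5.18 and 6.10 in inguinal fat, and its liver groups overlapped. The contrasts were 2.40 ± 0.24 (SE; adjusted p = 0.0107) for Fcrls and 2.40 ± 0.37 (SE; adjusted p = 0.0397) for Ccl8, a call that held in 14 of 27 settings. The change of Ccl8 was -3.37 in inguinal and -1.55 in epididymal fat, but the difference between depots passed for no gene on the array in limma (lowest adjusted p 0.341, with 364 genes at an unadjusted p under 0.05).

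The 3 chains of complement C1q, the recognition unit that starts the classical pathway, were all called and all expressed in both tissues. C1qc was at 9.43 and 8.96 in wild-type against 8.08 and 7.90 in Mgl2-DTR epididymal fat, at 9.03 and 9.21 against 7.08 and 7.10 in inguinal fat, and at 7.91 and 7.90 against 8.59 and 8.43 in liver. The Mgl2-DTR arrays were thus lower in each depot and higher in liver, with no overlap. C1qb was at 11.83 and 11.37 against 10.55 and 10.27 in epididymal fat, 11.15 and 11.29 against 9.01 and 9.54 in inguinal fat and 9.92 and 9.82 against 10.58 and 10.55 in liver. C1qa had the smallest liver shift of the 3, from 8.87 and 8.91 to 9.19 and 9.23, beside 10.02 and 9.78 against 8.85 and 8.69 in epididymal and 10.06 and 10.05 against 7.86 and 8.41 in inguinal fat. The contrasts were 2.22 ± 0.21 (SE; adjusted p = 0.0107), 2.26 ± 0.26 (SE; adjusted p = 0.012) and 1.84 ± 0.22 (SE; adjusted p = 0.0127). In fat the 3 chains fell 3.06-, 2.96- and 2.87-fold, each called, and in liver the ratios were 1.52, 1.62 and 1.25, none called in limma (adjusted p = 0.591, 0.669 and 0.994). In whole tissue, fewer cells of a type and less RNA per cell cannot be told apart, here or in any group below.

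Classical MHC class II genes were also lower in fat and higher in liver of Mgl2-DTR mice. The alpha chain gene H2-Aa was at 10.25 and 9.91 in wild-type against 9.20 and 8.91 in Mgl2-DTR epididymal fat, 10.27 and 10.15 against 8.15 and 8.72 in inguinal fat, and 7.91 and 7.87 against 8.66 and 8.67 in liver. Its partner, the beta chain gene H2-Ab1, was at 11.92 and 11.54 against 10.73 and 10.36, 11.90 and 11.85 against 9.83 and 10.22, and 9.56 and 9.28 against 10.22 and 10.15. For both genes each depot lay lower and liver lay higher in Mgl2-DTR mice, with no overlap. H2-Eb1, the beta chain of the other class II molecule, was at 9.71 and 9.27 against 8.34 and 8.42, 9.90 and 9.62 against 7.76 and 8.23, and 7.82 and 7.76 against 8.31 and 7.99 in the same order. The contrasts were 2.17 ± 0.24 (SE; adjusted p = 0.012) for H2-Aa, 2.28 ± 0.24 (SE; adjusted p = 0.0118) for H2-Ab1 and 1.80 ± 0.26 (SE; adjusted p = 0.0254) for H2-Eb1. The liver changes alone, of 0.77, 0.76 and 0.36, did not pass (adjusted p = 0.521, 0.521 and 1).

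Class II genes are switched on together through conserved promoter boxes, of which the Y box binds the factor NF-Y and CIITA acts as the shared coactivator. Because H2-Aa and H2-Eb1 were both called in the contrast, the 150 bases before their start are shown, on the coding strand, 5′ to 3′, from RefSeq on GRCm38.p6 (H2-Aa at chr17:34287824-34287973, minus strand; H2-Eb1 at chr17:34305717-34305866, plus strand). Capitals mark the letters CTGATTGG, a form of the Y box, which begin 51 bases before the start in H2-Aa and 62 bases before it in H2-Eb1.
H2-Aa: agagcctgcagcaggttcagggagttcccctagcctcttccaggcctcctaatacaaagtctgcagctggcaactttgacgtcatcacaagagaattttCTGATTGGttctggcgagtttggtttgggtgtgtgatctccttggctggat
H2-Eb1: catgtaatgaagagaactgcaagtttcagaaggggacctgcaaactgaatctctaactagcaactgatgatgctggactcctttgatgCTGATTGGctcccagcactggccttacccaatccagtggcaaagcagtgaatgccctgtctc
CTGATTGG, searched on both strands, lay in 1039 of 32851 such windows of the genome's genes, or 3.16%, and among the 24 called genes with a window in the table it lay in these 2. H2-Ab1 was not among the 24. The match is a description of the letters. Ciita itself was not called: its contrast was 0.72 (adjusted p = 0.776) with changes of 0.04 in liver, -0.88 in epididymal and -0.47 in inguinal fat. The peptide loading gene H2-DMa had a contrast of 1.27 (adjusted p = 0.318), H2-DMb2 of 1.09 (adjusted p = 0.488) and H2-Ob, which opposes peptide loading, of -0.03 (adjusted p = 0.993). Of the 7 tested genes of the class II list 3 passed, all higher, and the median contrast was 1.27 against -0.04 over all genes tested.

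Other genes expressed in both tissues passed higher, of which Folr2 was in the resident macrophage and Kupffer lists and the rest were in no list. Folr2, the folate receptor beta of resident macrophages, was at 11.12 and 10.35 against 9.65 and 9.42 in epididymal fat, 10.74 and 10.86 against 8.13 and 8.59 in inguinal fat and 9.0 and 9.05 against 9.73 and 9.62 in liver. Cd33, a lectin that binds sialic acid, was at 9.24 and 8.70 against 7.19 and 7.26, 8.71 and 8.22 against 6.83 and 7.26, and 6.49 and 6.31 against 7.16 and 6.96. Aoah, an enzyme that removes acyl chains from bacterial lipopolysaccharide, was at 7.19 and 7.34 against 6.63 and 6.0, 7.99 and 8.03 against 5.15 and 5.93, and 5.74 and 5.79 against 6.51 and 6.43. All 3 were lower in both depots and higher in liver of Mgl2-DTR mice with no overlap. Their contrasts were 2.47 ± 0.30 (SE; adjusted p = 0.0127), 2.24 ± 0.28 (SE; adjusted p = 0.016) and 2.42 ± 0.32 (SE; adjusted p = 0.0188). In Aoah the Mgl2-DTR inguinal arrays and the wild-type liver arrays lay close to the level taken as expressed, so its shifts there have a floor.

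Gfra2, a receptor subunit for the growth factor neurturin, had levels of 6.62 and 6.06 in wild-type and 6.86 and 7.13 in Mgl2-DTR liver and a contrast of 2.08 ± 0.26 (SE; adjusted p = 0.016). Abca9, a lipid transporter of the ABC family, had liver levels of 6.25 and 6.17 against 6.98 and 6.51 and a contrast of 2.02 ± 0.25 (SE; adjusted p = 0.0127). Slc9a9, a sodium-proton exchanger of endosomes, had liver levels of 7.67 and 7.35 against 7.95 and 7.94 and a contrast of 1.62 ± 0.23 (SE; adjusted p = 0.0254). In fat these 3 genes fell 2.68-, 2.8- and 2.27-fold. P2ry12, the receptor for ADP of platelets and microglia, was the remaining gene of this class that passed higher, and is named after its values were seen. It was at 6.83 and 6.88 against 6.30 and 6.39 in epididymal fat, 7.25 and 7.36 against 6.43 and 6.58 in inguinal fat and 6.17 and 5.79 against 6.86 and 6.81 in liver, with a contrast of 1.51 ± 0.18 (SE; adjusted p = 0.0127). Unlike in the genes before it, the liver shift of P2ry12, 0.86, was larger in size than its shift in either depot, -0.51 and -0.80; whether these sizes differ was not tested.

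**Figure D2:**
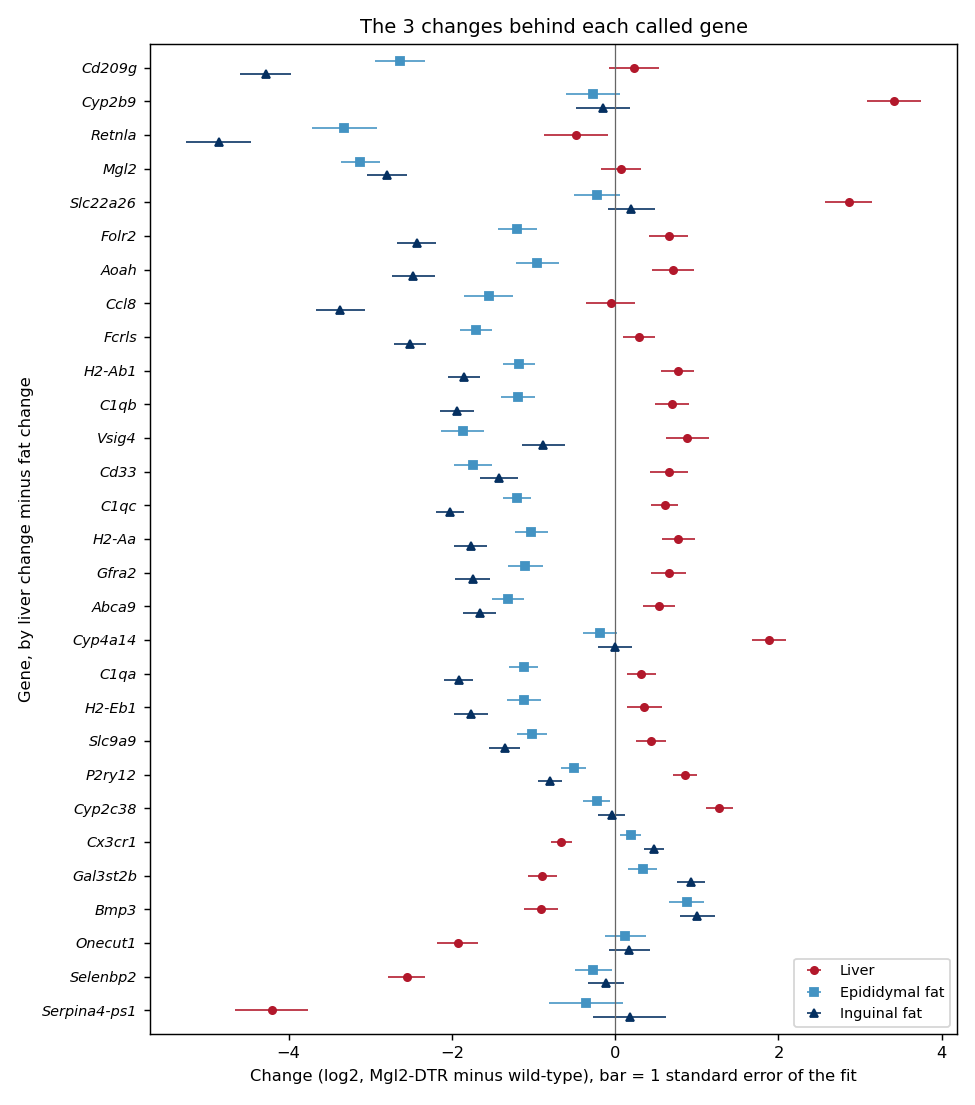
For each of the 29 named genes called in the contrast, the change in liver (circles), epididymal fat (squares) and inguinal fat (triangles) is drawn on a log2 scale as Mgl2-DTR minus wild-type, with bars of 1 standard error from the fit of 12 arrays. The C1q and class II genes, Folr2, Cd33 and Vsig4 have both fat symbols left of 0 and the liver symbol right of it, while the cytochrome genes, Onecut1, Selenbp2 and Serpina4-ps1 have both fat symbols near 0.

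Among Kupffer cell genes the complement receptor Vsig4 was called. In liver it was at 9.60 and 9.17 in the wild-type and 10.26 and 10.29 in Mgl2-DTR mice. In epididymal fat it was at 5.75 and 6.58 against 4.34 and 4.26 and in inguinal fat, where it was under the expressed level throughout, at 4.89 and 4.77 against 4.16 and 3.73. The groups were apart in all 3 tissues and the contrast was 2.26 ± 0.32 (SE; adjusted p = 0.0254). Its Mgl2-DTR fat values were all below 5.71, so the size of its fall in fat has only a bound. Of the 12 Kupffer genes, 2 passed (Folr2 and Vsig4, both higher), 11 had a higher mean in Mgl2-DTR liver, and in 10 the liver arrays of the genotypes were apart with Mgl2-DTR higher, against 19.2% of all genes tested. The liver change alone was called for 0 of the 12 and the fat change for 3, against 0.0708% and 0.323% of all genes tested. The scavenger receptor Marco had a liver change of 1.30 (adjusted p = 0.0863) and a contrast of 1.26 (adjusted p = 0.143). Clec4f, a lectin restricted to Kupffer cells, had a liver change of 0.54 and a contrast of 0.44 (adjusted p = 0.653), and Timd4 and Cd5l had contrasts of 1.30 and 1.26 that did not pass (adjusted p = 0.438 and 0.373). The mean of the 12 genes was 8.75 and 8.65 in wild-type liver and 9.27 and 9.22 in Mgl2-DTR liver, and 6.95 and 7.03 against 6.47 and 6.62 in inguinal fat.

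Among 20 pan-macrophage genes 3 passed higher (C1qa, C1qb and C1qc) and 1 lower (Cx3cr1). Their median contrast was 1.50, with medians of 0.57 in liver, -0.96 in epididymal and -0.89 in inguinal fat, where over all genes tested the medians were -0.04, 0.01, 0.0049 and 0.10. In liver the genotypes were apart with Mgl2-DTR higher for 19 of the 20, against 19.2% of all genes tested, although no liver change among them was called. The largest contrast in the list belonged to Csf1r, the receptor for the macrophage growth factor, which did not pass: it was at 11.54 and 10.34 against 9.54 and 9.29 in epididymal fat, 10.32 and 10.34 against 7.86 and 8.60 in inguinal fat and 9.28 and 9.02 against 9.98 and 9.83 in liver, with a contrast of 2.57 ± 0.43 (SE; adjusted p = 0.0702). Epididymal wild-type replicate 1 was well above its partner there. Without that array the pan-macrophage median was 1.17, and without Epididymal wild-type replicate 2 it was 1.83.

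Of 20 tested resident macrophage genes 5 passed, all higher (Cd209g, Retnla, Folr2, Ccl8 and Fcrls), and the median contrast was 1.31, from medians of 0.26 in liver, -0.81 in epididymal and -1.21 in inguinal fat. The contrast was above 0 for 18 of the 20, and the liver change for 14. In liver the genotypes were apart with Mgl2-DTR higher for 8 and lower for 4, against 19.2% and 15.2% of all genes tested. The list holds genes picked for these cells with earlier results known, so its direction is no independent evidence. The same holds for every other list here, and the members of a list are not replicates of each other. In the list of 13 genes for CD301b-positive phagocytes and for dendritic cells of type 2 only Mgl2 passed, with a median contrast of 0.74. Without Epididymal wild-type replicate 1 that median was 0.49 and without Epididymal Mgl2-DTR replicate 1 it was 1.13. None of 11 genes of lipid-associated macrophages passed in limma, 2 had an unadjusted p under 0.05, and the median contrast was 0.81, or 0.45 without Epididymal wild-type replicate 1. The contrast with the lowest p in that list was that of Atp6v0d2, a subunit of the lysosomal proton pump, at 2.35 ± 0.74 (SE; adjusted p = 0.424).

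**Figure D3:**
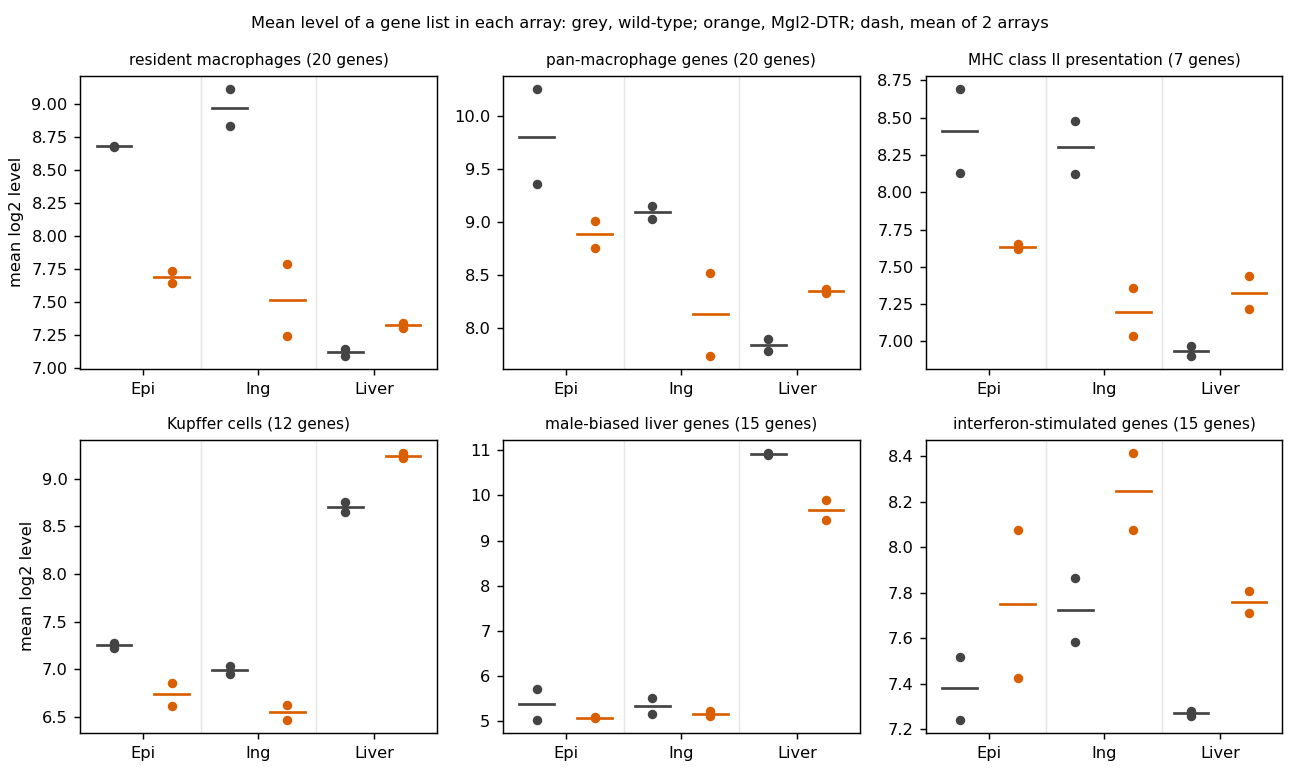
Mean log2 level of 6 gene lists in each of the 12 arrays, with wild-type arrays in grey, Mgl2-DTR arrays in orange, the mean of each group as a dash and the tissues along the x axis (Epi, epididymal fat; Ing, inguinal fat). In the resident macrophage, pan-macrophage, MHC class II and Kupffer panels the Mgl2-DTR arrays lie below the wild-type arrays in both depots and above them in liver; the male-biased panel lies at 10.94 and 10.90 in wild-type and 9.90 and 9.47 in Mgl2-DTR liver.

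Called in the opposite direction was Cx3cr1, the receptor for fractalkine on monocytes and some macrophages. It was at 6.78 and 6.81 in wild-type and 6.19 and 6.08 in Mgl2-DTR liver, with the genotypes apart. In fat it was at 6.58 and 6.44 against 6.72 and 6.68 in the epididymal and 6.10 and 5.93 against 6.43 and 6.55 in the inguinal depot, with Mgl2-DTR higher in both. Its contrast was -0.99 ± 0.15 (SE; adjusted p = 0.0448), and it passed in 10 of the 28 settings that tested it. Neither its liver change of -0.66 (adjusted p = 0.216) nor its fat change of 0.33 (adjusted p = 0.302) passed alone. All its values lay between 5.93 and 6.81, near the expressed level.

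Bmp3, a member of the bone morphogenetic protein family that opposes other members, was at 7.66 and 8.0 in wild-type against 8.99 and 8.43 in Mgl2-DTR epididymal fat and at 8.45 and 8.25 against 9.50 and 9.21 in inguinal fat. In liver it was near background, at 5.41 and 5.68 against 4.67 and 4.60. It rose in fat by 0.94 ± 0.15 (adjusted p = 0.0456) and its contrast was -1.85 ± 0.26 (SE; adjusted p = 0.0254). Gal3st2b, a sulfotransferase that acts on galactose, was at 6.13 and 6.59 against 5.54 and 5.40 in liver, 5.23 and 5.12 against 5.44 and 5.57 in epididymal and 4.98 and 5.16 against 5.87 and 6.13 in inguinal fat, with a contrast of -1.52 ± 0.22 (SE; adjusted p = 0.0254). In both genes the Mgl2-DTR arrays were higher in each depot and lower in liver. All liver values of Bmp3 were below 5.71, as were the epididymal, wild-type inguinal and Mgl2-DTR liver values of Gal3st2b. The size of the liver change of Bmp3 and of each change of Gal3st2b therefore has only a bound.

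Of the 7 genes called in the contrast and in liver alone, Selenbp2 was expressed in both tissues and the other 6 were near background in fat. Cyp2b9, a cytochrome P450 found mainly in female liver, was at 6.53 and 5.50 in wild-type and 9.79 and 9.06 in Mgl2-DTR liver, and between 3.51 and 4.23 in all fat arrays. It rose 10.7-fold in liver (log2 change 3.41 ± 0.33, adjusted p = 0.011) and its contrast was 3.62 ± 0.40 (SE; adjusted p = 0.012). Its wild-type liver array at 5.50 was just below 5.71. Slc22a26, an organic ion transporter, was at 5.21 and 4.82 against 7.36 and 8.39 in liver, with a measured rise of 2.86 (log2) and a contrast of 2.87 ± 0.35 (SE; adjusted p = 0.0127). Its wild-type liver level was itself below 5.71, so the size of the rise has only a bound. Cyp4a14, a fatty acid hydroxylase controlled by PPAR-alpha, was at 8.69 and 9.15 against 10.74 and 10.86, rose 3.69-fold and had a contrast of 1.98 ± 0.25 (SE; adjusted p = 0.0163). Cyp2c38, a P450 of the Cyp2c family, was at 9.75 and 9.59 against 10.86 and 11.03, rose 2.42-fold and had a contrast of 1.41 ± 0.20 (SE; adjusted p = 0.0254).

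In the opposite direction, Selenbp2, a selenium-binding protein of male liver, was at 11.04 and 10.88 in wild-type and 8.54 and 8.28 in Mgl2-DTR liver. Its fat values lay between 6.26 and 7.03 in both genotypes, over the expressed level, and its fat change was not called (-0.19, adjusted p = 0.703). The fall was 5.88-fold and the contrast -2.37 ± 0.27 (SE; adjusted p = 0.0127). Serpina4-ps1, a transcribed pseudogene of the serpin family, was at 9.38 and 10.90 against 6.20 and 5.65 in liver, a measured 18.5-fold fall, with a contrast of -4.12 ± 0.55 (SE; adjusted p = 0.0202). Its Mgl2-DTR liver array at 5.65 was just below 5.71. Onecut1, the transcription factor HNF6 of hepatocytes and bile duct cells, was at 9.04 and 9.84 against 7.79 and 7.23 in liver and between 4.07 and 4.33 in fat. It fell 3.81-fold (adjusted p = 0.036) and its contrast was -2.08 ± 0.31 (SE; adjusted p = 0.0325), a call that held in 14 of 29 settings. Several of these genes have close relatives in their families (Cyp2b, Cyp2c, Cyp4a, Slc22a, Serpina and Selenbp1), and sequence that a probe may share with a relative was not checked here.

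**Figure D4:**
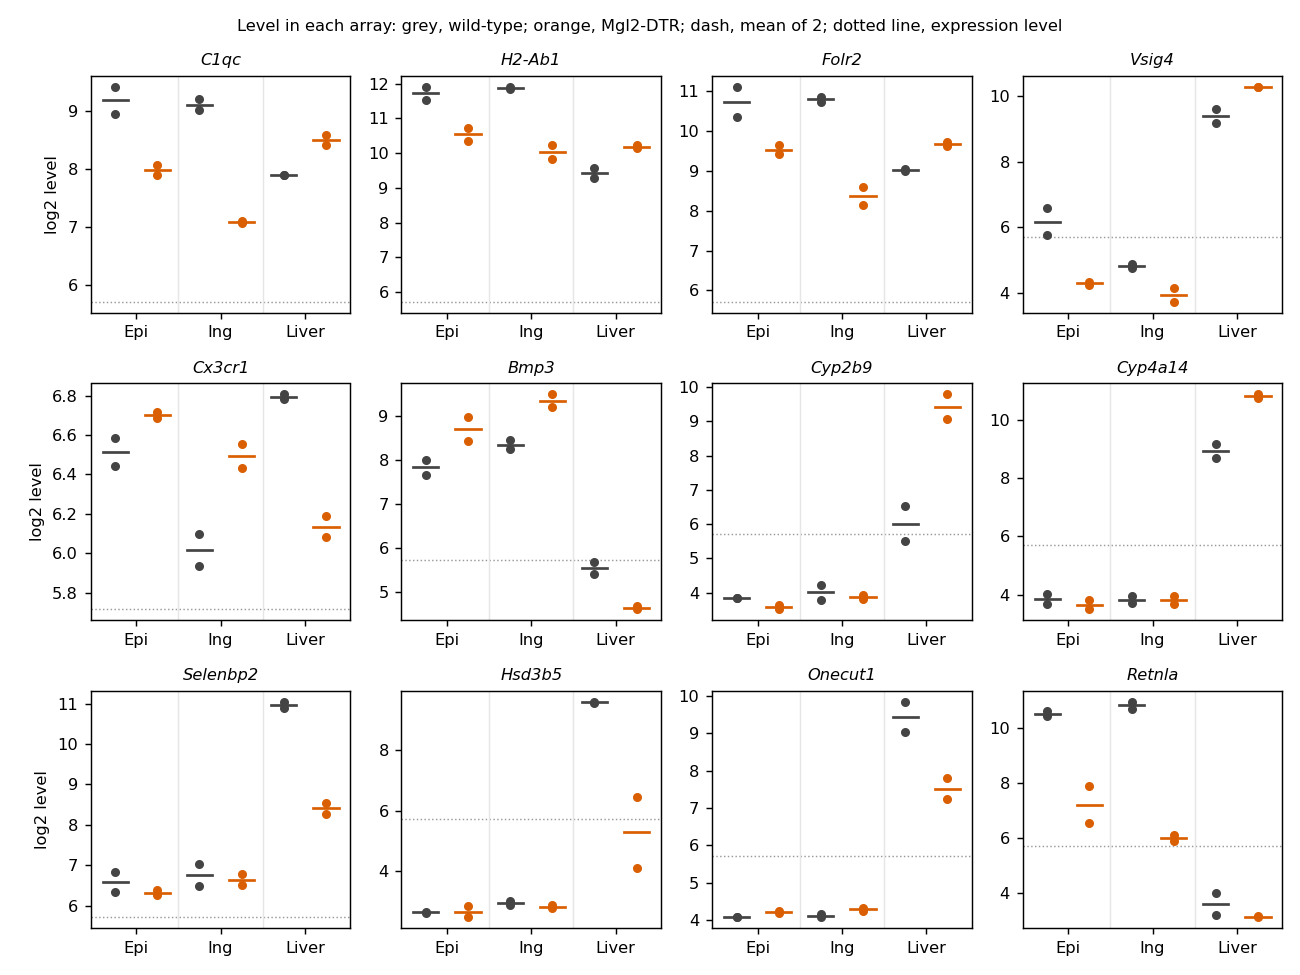
Log2 level of 12 genes in each array, with wild-type in grey, Mgl2-DTR in orange, a dash for the mean of 2 arrays and a dotted line at 5.71, the level taken as expressed; tissues are on the x axis (Epi, epididymal fat; Ing, inguinal fat). C1qc, H2-Ab1, Folr2 and Vsig4 lie lower in fat and higher in liver of Mgl2-DTR mice, Cx3cr1 and Bmp3 lie the opposite way, and Cyp2b9, Cyp4a14, Hsd3b5 and Onecut1 have genotypes that are apart in liver and levels near background in fat.

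Genes with a known sex bias in liver were followed as 2 lists. These too were chosen with earlier results of these data known, so their counts are no independent evidence. Of 15 tested male-biased liver genes 1 passed in the contrast, lower (Selenbp2); the mean liver change was below 0 for all 15 and the genotypes were apart with Mgl2-DTR lower for 14, against 15.2% of all genes tested. Their median was -1.09 in liver, -0.24 in epididymal and -0.11 in inguinal fat, and -1.05 in the contrast. Hsd3b5, a male-specific steroid enzyme, was at 9.55 and 9.59 in wild-type and 6.46 and 4.12 in Mgl2-DTR liver and between 2.49 and 3.01 in fat. Its liver change, -4.28 ± 0.56, was called (adjusted p = 0.036), and its contrast, -4.24 ± 0.68 (SE; adjusted p = 0.0566), was not. The Mgl2-DTR liver arrays of Hsd3b5 were far apart, at 6.46 in replicate 1 and 4.12 in replicate 2. Replicate 2 was below 5.71, so the size of the fall of Hsd3b5 has only a bound. Cyp4a12b, a male-biased fatty acid hydroxylase, was at 10.07 and 9.91 against 8.49 and 8.06 in liver, with a called liver change (adjusted p = 0.036) and a contrast of -1.57 ± 0.26 (SE; adjusted p = 0.0701). All 7 tested female-biased genes had a mean liver change above 0, with a median of 0.78, and 1 passed in the contrast (Cyp2b9). Their median contrast was 0.22, but 0.95 without Liver wild-type replicate 2, whose list mean of 7.04 stood above the 6.45 of its partner.

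Other liver functions were measured with few calls. Of 27 cytochrome P450 genes of families 1 to 4, 3 passed, all higher (Cyp2b9, Cyp4a14 and Cyp2c38), and the median contrast was 0.21, or 0.35 without Liver Mgl2-DTR replicate 2 and 0.14 without Liver wild-type replicate 1. Of 18 liver transcription factors only Onecut1 passed. Foxa2, Cebpa and Hnf4a had contrasts of -0.85, -0.89 and -0.03 that did not pass (adjusted p = 0.395, 0.414 and 0.992). None of 20 bile acid genes passed in limma (3 at an unadjusted p under 0.05). Cyp8b1, which sets the share of cholic acid, had a contrast of -1.19 (adjusted p = 0.268) and Cyp7a1, the rate-limiting enzyme of bile acid synthesis, of -0.84 (adjusted p = 0.414). Dio1, which activates thyroid hormone, was at 9.61 and 9.03 against 7.79 and 7.18 in liver, with a contrast of -2.01 ± 0.35 (SE; adjusted p = 0.0845). None of 21 acute phase genes passed in limma, with 1 at an unadjusted p under 0.05. All 21 had a mean liver change above 0, and their mean was 10.91 and 10.88 in wild-type liver but 11.02 and 11.82 in Mgl2-DTR replicates 1 and 2, so the median contrast of 0.37 became -0.12 without replicate 2.

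Interferon-stimulated genes had medians above 0 in all 3 tissues. Of 15 tested, 0 passed in limma and 0 had an unadjusted p under 0.05 in the contrast. These medians were 0.41 in liver, 0.38 in epididymal and 0.53 in inguinal fat, which left -0.01 in the contrast (-0.16 without Epididymal Mgl2-DTR replicate 2 and 0.15 without replicate 1), and the liver arrays were apart with Mgl2-DTR higher for 13 of 15, against 19.2% of all genes tested. Zbp1, a sensor of nucleic acid, had changes of 1.30, 0.60 and 0.65 in liver, epididymal and inguinal fat. Isg15, a ubiquitin-like modifier, had changes of 0.41, 0.38 and 0.41 in the same order, and Ifit1 of 0.86, 0.85 and 0.98. The list mean was 7.28 and 7.26 in wild-type against 7.81 and 7.71 in Mgl2-DTR liver, while in epididymal fat the genotypes overlapped.

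Some changes that passed in a single tissue did not pass in the contrast. Of the 41 genes whose fat change was called, 20 passed in the contrast and 21 did not. Among the 21 were Clec10a, the gene of the related CD301a lectin (contrast 1.62, adjusted p = 0.416), the haemoglobin scavenger Cd163 (2.23, adjusted p = 0.266) and Slc40a1, the iron exporter ferroportin (1.28, adjusted p = 0.227). Of the 9 genes whose liver change was called, 7 passed and Hsd3b5 and Cyp4a12b did not. Dusp1, a phosphatase induced early by stress and glucocorticoids, was expressed in both tissues and had a contrast of -1.19 ± 0.23 (SE; adjusted p = 0.123) that rested on liver, where it was at 10.22 and 10.34 in wild-type and 8.84 and 9.24 in Mgl2-DTR mice. Itgb8, an integrin subunit that activates TGF-beta, had a contrast of -1.10 (adjusted p = 0.223) and inguinal levels of 5.70 and 5.49 in wild-type and 7.55 and 7.20 in Mgl2-DTR mice.

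The rule that fills the places of each class and direction also named genes that were not called. These included Spsb1 (-0.91), Cacng7 (-0.95), Cyp4a31 (1.0), Slc39a4 (-1.40) and Adam19 (1.28), with adjusted p-values of 0.0946, 0.162, 0.0678, 0.171 and 0.0704. With higher adjusted p-values, and near background in liver, were Cpeb1 (-0.77), Usp35 (-1.06), Dcst2 (-0.85) and Cacna1c (-0.83), at 0.259, 0.283, 0.298 and 0.298.

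The contrast gave both depots equal weight, and each depot was also compared with liver on its own. Liver against inguinal fat, in the fit of all 12 arrays, gave 24 calls, 20 of them higher, and liver against epididymal fat gave 0 in limma (lowest adjusted p 0.0614, with 887 genes at an unadjusted p under 0.05, beside 890 for inguinal fat). Both comparisons share the liver arrays. For C1qc the contrast was 2.63 against inguinal and 1.81 against epididymal fat (adjusted p = 0.011 and 0.0614), for H2-Ab1 2.62 and 1.95 (adjusted p = 0.0125 and 0.0653), and for Aoah 3.18 and 1.66 (adjusted p = 0.0129 and 0.325). Vsig4 and Cd33 were the other way round, at 1.77 and 2.08 against inguinal and 2.75 and 2.40 against epididymal fat. The epididymal arrays had the wider spread between replicates. The difference between the changes of the depots passed for no gene in limma (lowest adjusted p 0.341, with 364 genes at an unadjusted p under 0.05).

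Markers of other cells were followed in the same arrays. None of 10 fibroblast, 19 extracellular matrix, 15 endothelial, 13 adipocyte or 15 hepatocyte genes passed in the contrast in limma, with 0, 1, 0, 0 and 1 genes at an unadjusted p under 0.05. Of 6 T and NK cell genes 3 had an unadjusted p under 0.05 and none passed; Cd3e, a chain of the T cell receptor complex, had changes of 0.81 in liver, 0.26 in epididymal and -0.0033 in inguinal fat and a contrast of 0.68 (adjusted p = 0.434). Of 6 mast cell genes 2 had an unadjusted p under 0.05 in the contrast and none passed. In 4 of the 6 the Mgl2-DTR arrays were apart and lower in both depots, against 3.16% of all genes tested, and the median fat change was -0.85, with no fat change called. The mean of the 6 was 6.50 and 7.06 against 6.37 and 6.28 in epididymal, 8.06 and 8.05 against 7.07 and 7.57 in inguinal fat, and between 4.89 and 5.12 in liver. Mast cell genes were thus lower in fat beside the macrophage genes, and their part in those results was not tested. The mast cell protease Mcpt4 had a contrast of 1.71 ± 0.55 (SE; adjusted p = 0.435), with changes of -1.14 and -1.46 in the depots. The duct genes, high in 1 Mgl2-DTR epididymal array, gave the list with the lowest median contrast, -2.18 (-4.07 without Epididymal Mgl2-DTR replicate 1), and 0 of its 6 genes passed in limma (0 at an unadjusted p under 0.05). Skeletal muscle genes, high in 1 inguinal array of each genotype, had a median contrast of 0.01, which became -0.97 without Inguinal wild-type replicate 2 and 0.96 without Inguinal wild-type replicate 1. What part these arrays had in the called genes was not tested beyond the settings that leave them out.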

How the data were processed

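RNA of 12 tissue samples (3 tissues, 2 genotypes, 2 arrays per group) was amplified and biotinylated with an Affymetrix GeneChip kit for 1-colour arrays, per the labels' protocols. Each sample's deposited column holds log2 levels that the submitters had normalized, with medians between 5.19 and 5.28. Limma is named in the submitters' processing notes, and the background correction, normalization and summarization were not given in the sources used here, and no raw arrays were used here. The number of arrays limits the precision.

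The platform annotation gave a single gene symbol for 23521 of 41345 probes, several for 1814 and none for 16010. Each of 22180 genes was represented by its brightest probe on average. One mean per group was fitted in limma 3.58.1 (R 4.3.3) with eBayes on 6 residual degrees of freedom, and p-values, two-sided, were adjusted by the Benjamini-Hochberg method over the 12710 genes tested, with a call at an adjusted p under 0.05. The procedure was tested on simulated data. "Apart" means that the arrays of the genotypes did not overlap.

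Genes were named by rule: Mgl2 and Retnla; up to 12 called genes per direction among those expressed in both and up to 10 in the other classes, by size of contrast, places up to 6 being filled by p and given as values; called genes of opposite sign in liver and fat; and up to 4 called members of each list, or 3 by p. Predicted genes were skipped. The genes and the 43 lists were chosen with earlier results of these data known. Same-numbered arrays deviated together with correlations over genes between -0.01 and 0.12 within a genotype. These were not all over 0.1, so the main fit did not take the numbers to pair samples. The number was not without structure. In every group the array with the higher number had the higher mean of glucocorticoid targets and of stress and unfolded protein genes. With genotype and number as a fixed block 16 genes passed, and 14 of the main calls were among them. What the number marks was not tested. Alternatives changed the filter, probe choice, normalization, variance model, threshold, fat depot, class rule, replicate block and arrays.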

Additional observations from a re-analysis of the deposited data

Results flagged for a closer look

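The genes called in the contrast are by its construction genes whose change differed between liver and fat, tested by the contrast itself. Among genes expressed in both tissues the differences (liver change minus fat change, log2) were 2.47 for Folr2, 2.42 for Aoah, 2.28 for H2-Ab1, 2.26 for C1qb, 2.24 for Cd33, 2.22 for C1qc and 2.17 for H2-Aa. They were 2.08 for Gfra2, 2.02 for Abca9, 1.84 for C1qa, 1.80 for H2-Eb1, 1.62 for Slc9a9 and 1.51 for P2ry12, and in the other direction -2.37 for Selenbp2 and -0.99 for Cx3cr1. In genes near background in liver they were 3.69 for Cd209g, 3.61 for Retnla, 3.03 for Mgl2, 2.40 for Ccl8, 2.40 for Fcrls and -1.85 for Bmp3. In genes near background in fat they were 3.62 for Cyp2b9, 2.87 for Slc22a26, 2.26 for Vsig4, 1.98 for Cyp4a14, 1.41 for Cyp2c38, -4.12 for Serpina4-ps1, -2.08 for Onecut1 and -1.52 for Gal3st2b.

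The probes that carry no single gene symbol were outside the comparisons. Among 6490 of them over the expressed level in at least 1 tissue, 5 were called in the same fit over 19716 probes, 3 higher and 2 lower in liver relative to fat, beside 31 calls over all those probes.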

How the results depend on the processing

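The main fit gave 30 calls, of which 15 were expressed in both tissues, 9 near background in fat and 6 near background in liver. Changes of normalization, probe choice, variance model and the filter left between 20 and 32. No called gene other than Gm4450, which was not followed, changed sign in any setting that tested it. The probe choice, filter and eBayes settings could not turn a sign, since they kept each called gene's estimate. With a filter at the 75th percentile 20 passed, 2 of them near background in liver. An adjusted p under 0.10 gave 41. With genotype and replicate number as a fixed replicate block 16 passed (9, 3 and 4 in the 3 classes), and 14 of the 30 were among them; as a random block the same 30 passed. Inguinal fat alone gave 51 calls (29 expressed in both, 14 near background in liver), and epididymal fat alone gave 0, with 0 in every class and 665 genes at an unadjusted p under 0.05. Without the muscle-bearing inguinal arrays 0 passed in any class. Without all 4 doubtful fat arrays 5 passed near background in fat and 12 near background in liver. When every group mean had to be on 1 side of the level, 5 and 3 passed in these classes.

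Over the settings that left out 1 array, calls ranged from 0 to 242, those expressed in both from 0 to 167, those near background in fat from 0 to 22 and those near background in liver from 0 to 59. The share called higher was 76.7%, but 25.5% without Epididymal Mgl2-DTR replicate 1 and 95% without Inguinal wild-type replicate 1; the cause was not tested.

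Contrasts that turned sign belonged to uncalled genes of the lists: Thy1 -0.15 with epididymal fat alone; Jchain 0.022, Krt19 0.075 and Msln 0.12 without both doubtful epididymal arrays; and Jchain 0.17, Krt19 0.10, Msln 0.24 and Mgp 0.086 without all 4. Over the left-out arrays Jchain ranged from -0.93 to 0.063, Msln ranged from -0.49 to 0.076, Tnnc2 ranged from -1.03 to 0.42, Pvalb ranged from -0.46 to 1.55, Myh4 ranged from -0.67 to 1.69, Cxcr2 ranged from -0.61 to 0.030, Xbp1 ranged from -0.41 to 0.026 and Dhcr7 ranged from -0.041 to 0.76.

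With 2 arrays per group each group's spread rests on 1 difference, and a change with either genotype below the expressed level has only a bound.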

Other observations

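The labels number the samples of each group 1 and 2. The mean level of 16 glucocorticoid target genes lay between 8.85 and 9.53 in the 6 samples numbered 1 and between 9.73 and 10.05 in the 6 samples numbered 2, over all 3 tissues and both genotypes. Each group holds 1 of each, and whether the number marks a shared mouse or batch was not tested. Of these 16 genes 0 passed in the contrast in limma, with Dusp1 the 1 gene at an unadjusted p under 0.05, and their median contrast was 0.16, or -0.31 without Liver wild-type replicate 1 and 0.60 without Liver wild-type replicate 2.

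Metabolic lists of both tissues gave no calls. In limma 0 of 17 genes of fatty acid oxidation and ketogenesis, 21 of fatty acid and triglyceride synthesis, 14 of cholesterol synthesis, 22 of insulin signalling and glucose handling and 16 of lipolysis and lipid droplets passed, with 2, 0, 0, 2 and 2 genes at an unadjusted p under 0.05. Their median contrasts were -0.04, -0.05, 0.18, -0.16 and -0.36, and single arrays moved them. Without Epididymal wild-type replicate 1 the last 3 were -0.087, -0.024 and -0.21, and without Epididymal wild-type replicate 2 they were 0.41, -0.24 and -0.50. The first 2 were -0.16 and -0.17 without Liver Mgl2-DTR replicate 1, and the highest values were 0.086 for oxidation without Liver Mgl2-DTR replicate 2 and 0.086 for synthesis without Inguinal wild-type replicate 2. Gadd45b, a stress-induced gene, had changes of 0.97 in liver, -0.65 in epididymal and 0.83 in inguinal fat, with a contrast of 0.88 (adjusted p = 0.185).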
